A study of Homo sapiens with 4 samples.

Results

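The genes described here encode the subunits of RNA polymerases I, II and III, together with the dedicated initiation and termination factors of RNA polymerase I. They were taken from the gene names in the deposited TPM tables, namely every name made of POLR, the polymerase number, a letter and optional digits, plus POLR3GL, UBTF, RRN3, TAF1A, TAF1B, TAF1C, TAF1D and TTF1. This gave 42 of the 61498 listed genes under 41 symbols, because POLR2J3 is listed under the identifiers ENSG00000168255 and ENSG00000285437. By known composition, 6 belong to RNA polymerase I (Pol I) alone, 2 are shared by Pol I and Pol III, 5 are shared by all 3 enzymes, 12 belong to Pol II alone (among them the POLR2J copies and POLR2M), 10 belong to Pol III alone and 7 are Pol I factors.

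The study asked how the contacts of ribosomal RNA gene clusters with other genes, and gene expression, change in K562 cells during differentiation. K562 is an established human erythroleukemia line, which hemin drives towards erythroid cells. Only the RNA libraries are used here. The untreated group holds 2 libraries of K562 cells without the agent, and the hemin group holds 2 libraries of the same line kept for 108 h with 50 µM hemin. The cells of both groups were grown in the same RPMI medium with fetal calf serum. Poly(A)+ RNA was sequenced in reads of 50 bases, and the expected counts summed to between 7455447 and 8241534 per library.

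Pol I transcribes the ribosomal RNA genes in the nucleolus, Pol II transcribes messenger RNA genes, and Pol III makes transfer RNA, the smallest ribosomal RNA and other short RNAs. The enzymes share a common core, and each subunit outside it has a counterpart or a role of its own: a pair of large subunits forms the active centre, the stalk binds emerging RNA, and Pol I and Pol III carry built-in relatives of initiation factors that Pol II recruits separately. Poly(A) selection keeps the messenger RNAs of these subunits and leaves out most products of Pol I and Pol III, so the values below concern subunit messages and not polymerase activity.

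The label was checked against markers. All 9 erythroid markers passed the filter on low counts, and their summed TPM (a relative level corrected for transcript length and library size) was 5507 and 5733 in untreated replicates 1 and 2 and 7056 and 6598 in hemin replicates 1 and 2. Of 13 markers of other blood cells and tissues, 2 passed the filter (EPCAM and ITGA2B), and CD3E, MS4A1, MPO and PF4 were at 0 in all libraries. The summed TPM of the 13 ran from 47.0 to 54.5 over the libraries. Most of it was the epithelial marker EPCAM, at 42.35 and 44.68 TPM in the untreated and 49.22 and 42.96 TPM in the hemin libraries. Labels do not say that the replicates were separate cultures, so the p-values below measure the spread between these libraries, which may be technical. Between 2 groups of 2 libraries, an exact permutation test cannot go below p = 0.333, and the tests below are therefore edgeR's quasi-likelihood test fitted across all 14458 genes that passed the filter, with Benjamini-Hochberg adjusted p under 0.05 as the threshold. Bulk RNA cannot tell fewer cells of a kind from less RNA per cell.

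After hemin, 6 of the 42 genes were higher and 0 were lower by this test. These were POLR1A, POLR1B, POLR2A, POLR2D, POLR3C and the Pol I factor UBTF, by 1.18 to 1.33 times. That is 14.3% of the members, against 7.0% of all tested genes called higher and 7.14% called lower. At an unadjusted p under 0.05, 12 of the 42 members were higher and 2 lower by edgeR. Over all 14458 tested genes, 2133 were higher and 2118 lower at that level. DESeq2 gave 9 members higher and 0 lower at the same unadjusted level, where its share over all genes was not computed. With counts scaled by TMM-adjusted library size, on which overlap is judged here and below, the hemin libraries lay above both untreated libraries for 21 members (50.0%) and below both for 4, against 28.1% and 29.3% of all tested genes. With library size alone, a scaling added after the data were seen, these were 16 and 5 members, against 23.1% and 34.7% of all tested genes. POLR1F, POLR1H, POLR2E, POLR3A and TAF1D then overlapped. By edgeR with library size only, 6 members were again higher, while over all genes 729 were higher and 1358 lower, against 1012 and 1033 with TMM. The median log2 fold change of counts was 0.114 over the 42 members and -0.005 over all tested genes.

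**Figure D1:**
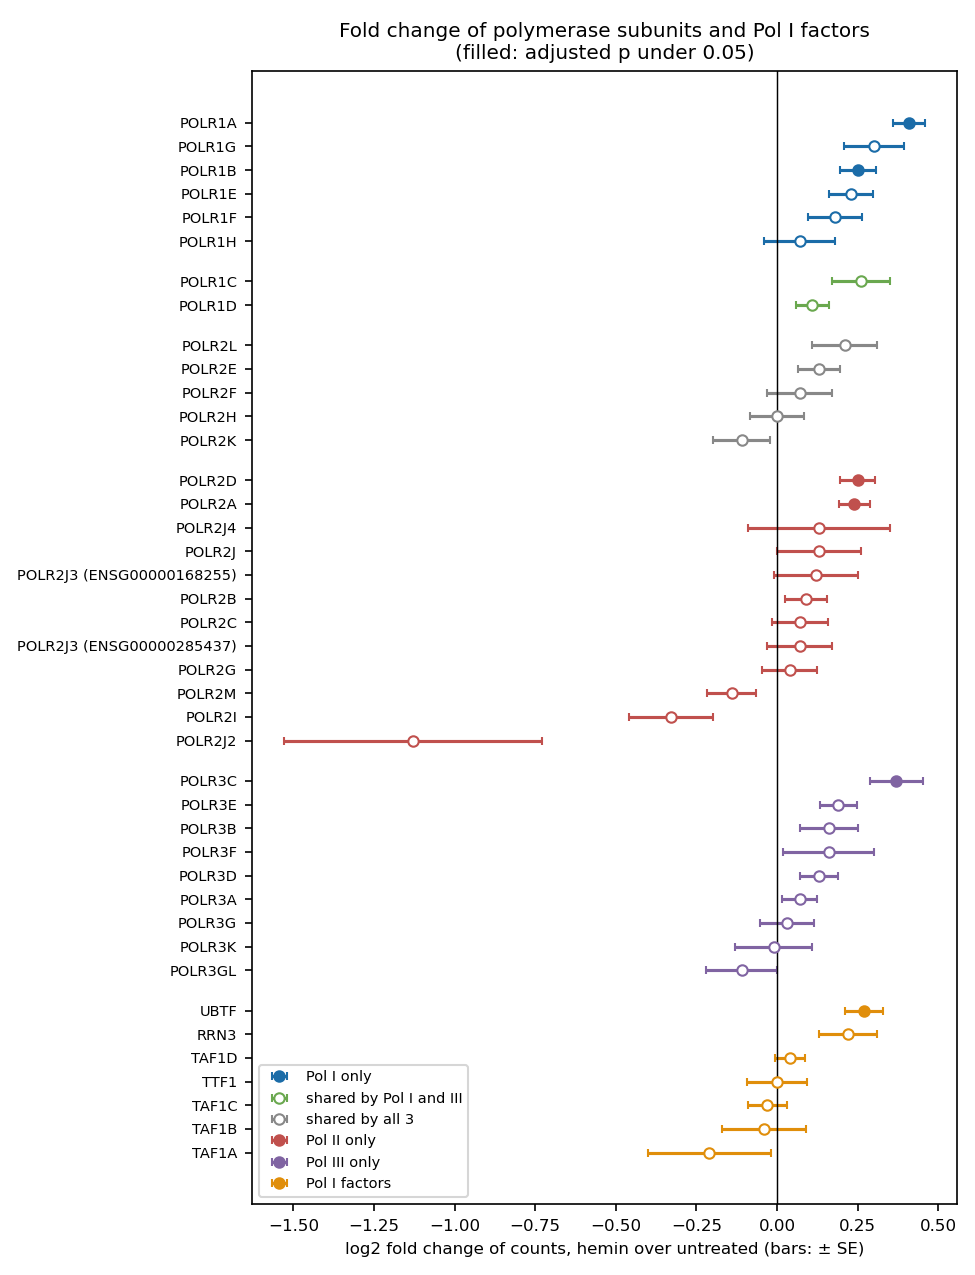
Log2 fold change of counts (horizontal axis, hemin over untreated) with its standard error for 41 of the 42 genes, grouped by polymerase. Filled points mark the 6 genes with adjusted p under 0.05, and POLR2J2 at -1.13 stands apart with a standard error of 0.4 (-0.51 with posterior mean counts).

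The 3 enzymes differed in where their genes lay, as a description. All 6 Pol I genes had fold changes above 0 and, with TMM factors, hemin libraries above both untreated ones (4 of 6 with library size alone, without POLR1F and POLR1H), with a median of 0.239 and 2 called. Of the 10 Pol III genes, 8 were above 0, and the median was 0.145 with 1 called. Hemin libraries lay above both untreated ones for 6 of them (5 with library size alone, without POLR3A). Of the 12 Pol II genes, 9 were above 0, and the median was 0.083 with 2 called. Hemin libraries lay above both untreated ones for 2 of them and below both for 3, on either scaling. Without the 4 POLR2J copies, a subset chosen after the values were seen, the other 8 Pol II genes had a median of 0.08. The median was 0.187 over the 2 genes shared by Pol I and Pol III, 0.066 over the 5 shared by all 3 enzymes, and -0.001 over the 7 Pol I factors. Among all 14458 tested genes, 7101 were above 0 and 7.0% were called higher. Hemin libraries lay above both untreated ones for 28.1% of them and below both for 29.3% (23.1% and 34.7% with library size alone). No test was made between these groups.

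The calls rested on few libraries. POLR1A passed in 12 of 14 alternative analyses, POLR2A, POLR2D and UBTF in 10, POLR3C in 9 and POLR1B in 8. DESeq2 called 3 members, POLR1A, POLR2A and UBTF. Without untreated replicate 2, edgeR called 2 of the 6, POLR1A and POLR2D, and without untreated replicate 1 it called 3, POLR1A, POLR3C and UBTF. With limma on log2(TPM + 1) 0 members passed, and over all genes 14 were higher and 33 lower by adjusted p. At an unadjusted p under 0.05, limma gave 3 members higher and 3 lower, and its share over all genes was not computed.

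The largest subunits carry one side of the active centre. POLR1A (chr2:86020216-86106155, minus strand, GRCh38) encodes that of Pol I, and its counts were 1800 and 1564 in the untreated libraries and 2140 and 2355 in the hemin libraries. Both hemin libraries lay above both untreated ones, and the log2 fold change was 0.41 (SE 0.049, adjusted p = 0.0011), the highest among the members. In TPM the same gene stood at 41.12 and 41.05 before and at 56.12 and 48.13 after hemin, again without overlap.

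POLR2A (chr17:7484366-7514616, plus strand) encodes the largest subunit of Pol II, whose repeated tail is phosphorylated during the transcription cycle. Its counts were 979 and 919 in the untreated and 1093 and 1155 in the hemin libraries, a log2 fold change of 0.24 (SE 0.048, adjusted p = 0.012). On the TPM scale it did not move in the same way, with 33.12 and 32.77 before and 35.82 and 30.85 after, so the groups overlapped and the log2 difference was 0.02. The effective length that RSEM assigned to the gene, a mean over the transcripts it weighted, was 5224 bases in the untreated and 5979 bases in the hemin libraries, a log2 difference of 0.19. TPM divides by this length, and the test was made on the counts.

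POLR3A, the largest Pol III subunit, did not pass, with counts of 694 and 680 in the untreated and 684 and 765 in the hemin libraries and a log2 fold change of 0.07 (adjusted p = 0.46). In TPM it ran from 21.5 and 24.04 to 27.1 and 25.01. Ratios between the largest subunits within each library were chosen after the values were seen, and their change depended on the scale. POLR1A over POLR2A in TPM was 1.24 and 1.25 in the untreated and 1.57 and 1.56 in the hemin libraries, a log2 difference of 0.3261, against 0.1757 in counts. POLR1A over POLR3A in TPM was 1.91 and 1.71, then 2.07 and 1.92, a log2 difference of 0.1436, against 0.3456 in counts. POLR2A over POLR3A changed direction with the scale: in TPM it was 1.54 and 1.36, then 1.32 and 1.23 (-0.1825), and in counts 1.41 and 1.35, then 1.6 and 1.51 (0.1698). Per length, POLR1A was thus the most abundant and POLR3A the least abundant of the 3 in every library.

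The second largest subunits close the active centre. POLR1B (chr2:112541915-112579818, plus strand), of Pol I, had counts of 598 and 579 in the untreated and 683 and 721 in the hemin libraries. The groups did not overlap, and the log2 fold change was 0.25 (SE 0.056, adjusted p = 0.02). POLR2B, of Pol II, had counts of 1127, 1203, 1146 and 1358 in the same order, which overlap, and 0.09 (adjusted p = 0.39). POLR3B, of Pol III, had counts of 203, 187, 215 and 223 and a log2 fold change of 0.16 (adjusted p = 0.29). Per length the order differed from that of the largest subunits: POLR2B was highest at 67.56 to 78.53 TPM over the libraries, POLR1B lay between 34.09 and 46.68, and POLR3B was lowest at 9.71 to 11.5, with no overlap between the 3 genes.

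**Figure D2:**
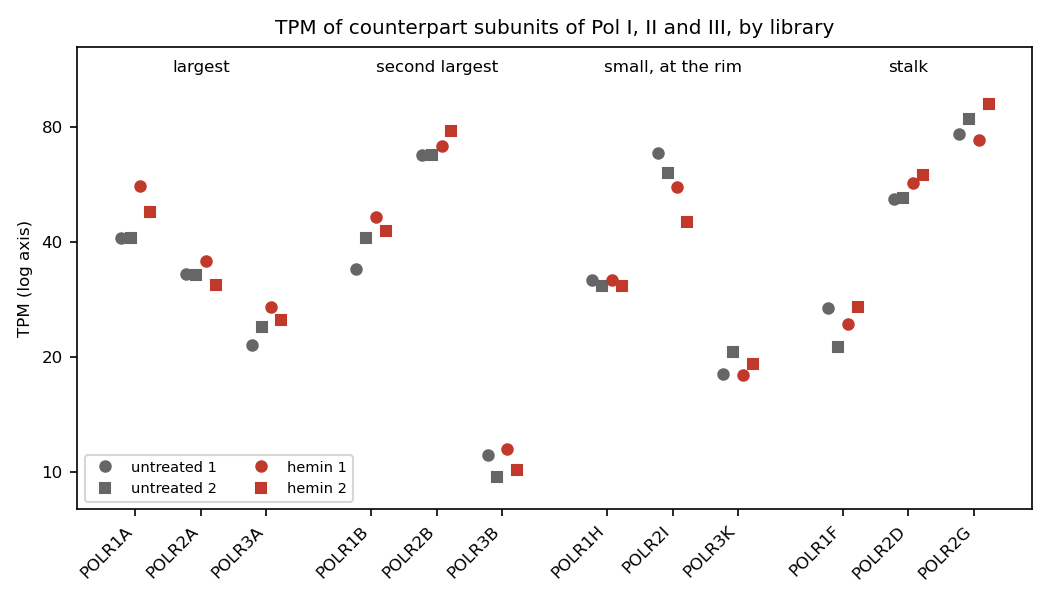
TPM (vertical log axis) of counterpart subunits in each of the 4 libraries, grey for untreated and red for hemin, circles for replicate 1 and squares for replicate 2. The Pol III gene is the lowest of each of the first 3 sets, and POLR2I is the gene whose hemin libraries both lie under its untreated ones.

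POLR1C and POLR1D form the assembly platform shared by Pol I and Pol III, and neither passed the test. POLR1C had 44.3 and 42.76 TPM before and 56.4 and 51.84 after hemin, with a log2 fold change of counts of 0.26 (adjusted p = 0.081). It shares 348 exonic bases with XPO5 on the opposite strand, at 114.71 to 137.14 TPM over the libraries. The part of XPO5 reads in POLR1C was not tested. POLR1D had 150.19 and 163.7 TPM, then 181.07 and 164.19, with 0.11 (adjusted p = 0.19). In Pol II the same place is taken by POLR2C and POLR2J. POLR2C had 47.02 and 55.47 TPM before and 51.68 and 55.77 after (log2 fold change 0.07, adjusted p = 0.67), so its groups overlapped where those of POLR1C did not.

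The 5 subunits common to all enzymes were POLR2E, POLR2F, POLR2H, POLR2K and POLR2L, and none passed. POLR2E was the most abundant, at 183.16 and 172.11 TPM before and 206.77 and 184.13 after hemin (log2 fold change 0.13, adjusted p = 0.22). POLR2L, a small zinc-binding subunit, had the highest fold change of the 5, with counts of 183 and 203 in the untreated and 216 and 233 in the hemin libraries (0.21, adjusted p = 0.21). It shares 257 exonic bases with CD151 on the opposite strand, at 81.39 to 87.55 TPM over the libraries. The part of CD151 reads in POLR2L was not tested. POLR2K, also small and zinc-binding, had the lowest, with counts of 342 and 325, then 275 and 349 (-0.11, adjusted p = 0.49). POLR2F and POLR2H lay between at 0.07 and 0.0.

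POLR1H, POLR2I and POLR3K are small zinc-ribbon counterparts related to the cleavage factor TFIIS. POLR1H had counts of 149 and 136, then 144 and 157 (0.07, adjusted p = 0.74), and POLR3K 134 and 145, then 128 and 151 (-0.01, adjusted p = 0.98). POLR2I (chr19:36113709-36115213, minus strand) had counts of 162 and 151 in the untreated and 134 and 116 in the hemin libraries, with no overlap. Its log2 fold change of -0.33 (SE 0.13) did not pass, at an adjusted p of 0.13. It overlaps exons of TBCB on the opposite strand by 217 bases, and TBCB had 46.3 mean TPM before and 47.9 after (log2 fold change 0.07, adjusted p = 0.767); no option for strand is among those stated for the counting, so reads of the 2 genes cannot be told apart there.

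The stalk, which binds the emerging transcript, holds POLR1F in Pol I and POLR2D with POLR2G in Pol II. POLR2D (chr2:127843553-127858155, minus strand) had counts of 661 and 650 in the untreated and 759 and 807 in the hemin libraries. The groups did not overlap and the log2 fold change was 0.25 (SE 0.054, adjusted p = 0.017), with TPM of 52.09 and 52.35 before and 57.35 and 60.1 after. POLR2D shares 6.86% of its 50-base runs with other genes, 5.7% with the pseudogene RPS26P19, which overlaps 349 of its exonic bases on the same strand. RPS26P19 had 7.81 and 12.72 TPM in the untreated and 9.6 and 16.7 TPM in the hemin libraries. The part of its reads in POLR2D was not tested. The stalk partner of POLR2D, POLR2G, had counts of 334 and 333, then 309 and 380 (0.04, adjusted p = 0.82). POLR1F, of Pol I, had counts of 430 and 442, then 442 and 556 (0.18, adjusted p = 0.18).

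Pol I and Pol III carry relatives of the Pol II initiation factor TFIIF. POLR1E had counts of 499 and 464 in the untreated and 572 and 564 in the hemin libraries (0.23, adjusted p = 0.053). POLR1G, its partner, had 216 and 234, then 271 and 285 (0.3, adjusted p = 0.064). It shares 1593 exonic bases with ERCC1 on the opposite strand, which had 64.3 mean TPM before and 67.0 after, and the part of ERCC1 reads in POLR1G was not tested. In Pol III, POLR3E had 691 and 674, then 778 and 792 (0.19, adjusted p = 0.052), and POLR3D 590 and 534, then 603 and 634 (0.13, adjusted p = 0.18). All 4 genes had hemin libraries above both untreated ones, and none passed the threshold.

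The Pol III trimer related to TFIIE opens the promoter. POLR3C (chr1:145824053-145844402, plus strand) had counts of 315 and 277 in the untreated and 351 and 420 in the hemin libraries. Its groups did not overlap in counts or in TPM (30.09 and 29.67, then 33.95 and 40.24), and the log2 fold change was 0.37 (SE 0.083, adjusted p = 0.018). POLR3F had counts of 100 and 116, then 119 and 124 (0.16, adjusted p = 0.51).

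The last place in the trimer is taken by either of a pair of paralogs, POLR3G, known from proliferating and stem cells, or POLR3GL, found widely. POLR3G had counts of 297 and 257 in the untreated and 269 and 298 in the hemin libraries (0.03, adjusted p = 0.88), and POLR3GL 223 and 189, then 170 and 214 (-0.11, adjusted p = 0.56). Neither passed, and both overlapped between groups. Per length the ratio of POLR3G to POLR3GL was 0.722 and 0.601 in the untreated and 0.822 and 0.87 in the hemin libraries, so POLR3GL was the more abundant in every library. The log2 ratio was higher after hemin by 0.3603 (two-sided exact permutation test, p = 0.333, the smallest possible). On counts the difference was 0.1437. The effective length of POLR3G was 2201 bases before and 1805 bases after, a log2 difference of -0.29. POLR3GL shares 12.0% of its 50-base runs with another annotated gene, which overlaps it on the same strand.

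**Figure D3:**
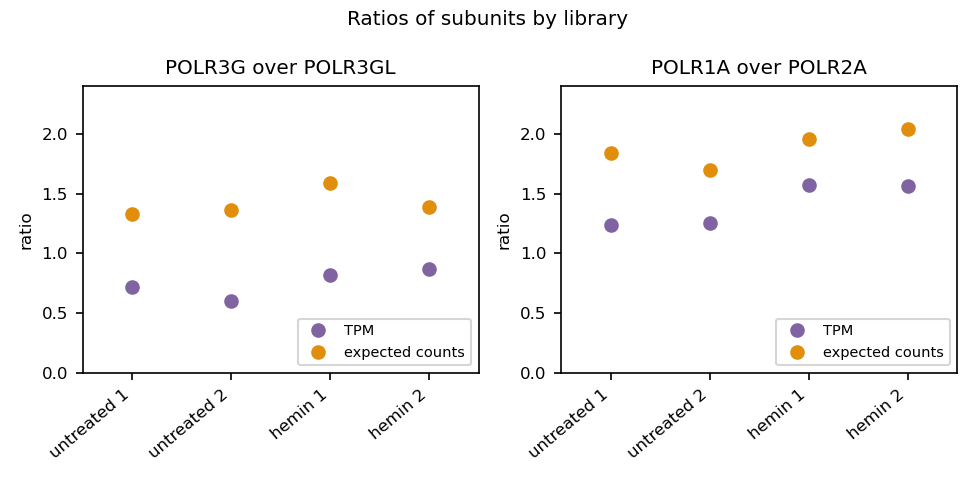
Ratio of POLR3G to POLR3GL (left) and of POLR1A to POLR2A (right) in each library, in TPM and in expected counts. The TPM ratios run from 0.601 to 0.87 on the left and from 1.24 to 1.57 on the right, with both hemin libraries above both untreated ones on either scale.

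The POLR2J copies are a family of related genes on chromosome 7 that share part of their sequence, shown here because their reads are shared. POLR2J encodes the subunit that pairs with POLR2C, POLR2J2 and POLR2J3 lie in later duplications, and POLR2J4 is annotated as a long noncoding RNA. Below is the second coding exon, 90 bases each, read from GRCh38 with GENCODE 44 transcripts, 5′ to 3′ on the minus strand, at chr7:102476181-102476270, chr7:102668915-102669004 and chr7:102569835-102569924 in the order of the lines. Capitals mark positions at which any copy differs from POLR2J.
POLR2J: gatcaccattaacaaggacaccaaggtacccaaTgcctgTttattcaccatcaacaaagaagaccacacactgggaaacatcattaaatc
POLR2J2: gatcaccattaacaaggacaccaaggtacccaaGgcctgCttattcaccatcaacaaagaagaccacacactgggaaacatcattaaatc
POLR2J3: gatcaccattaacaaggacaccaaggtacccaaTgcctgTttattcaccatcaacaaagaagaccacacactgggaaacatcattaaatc
POLR2J2 has the substitutions T34G and T40C, counted from the first base of the exon, and POLR2J3 (ENSG00000285437) has 0.

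Among runs of 50 bases, the read length, 97.6% of those in POLR2J2 transcripts also occurred in another gene, against 82.9% in POLR2J3 (ENSG00000168255), 32.9% in POLR2J3 (ENSG00000285437), 33.3% in POLR2J and 33.8% in POLR2J4. POLR2J2 had counts of 22 and 35 in the untreated and 15 and 11 in the hemin libraries, without overlap, and a log2 fold change of -1.13 (SE 0.4, adjusted p = 0.089). The posterior SD that RSEM gave for its count was 60.3% of the count, against a fitted ratio of 0.46. With the posterior mean counts the POLR2J2 log2 fold change was -0.51 (edgeR, adjusted p = 0.285), and with a library left out it ran from -0.715, without untreated replicate 2, to -1.46, without untreated replicate 1. It passed with no filter (edgeR, adjusted p = 0.0319) and with at least 20 counts (adjusted p = 0.0407). POLR2J had counts of 130 and 115, then 117 and 152 (0.13, adjusted p = 0.59). The POLR2J3 entries had 507 and 418, then 516 and 460 (0.07, adjusted p = 0.7) for ENSG00000285437, and 211 and 182, then 176 and 254 (0.12, adjusted p = 0.61) for ENSG00000168255. POLR2J4 had 50 and 39, then 50 and 48 (0.13, adjusted p = 0.74). No copy passed the test, and how reads were divided among them is uncertain.

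POLR2M encodes a protein known as GDOWN1 that joins Pol II outside its core. Its counts were 352 and 355 in the untreated and 305 and 340 in the hemin libraries, with a log2 fold change of -0.14 (adjusted p = 0.26). Its TPM was 46.5 and 38.63 before and 26.38 and 30.21 after, a log2 difference of -0.59 without overlap. The effective length went from 1523 to 2019 bases, a log2 difference of 0.41. POLR2M shares 18.7% of its 50-base runs with other genes, nearly all with GCOM1, which was at or under 0.31 TPM in every library.

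**Figure D4:**
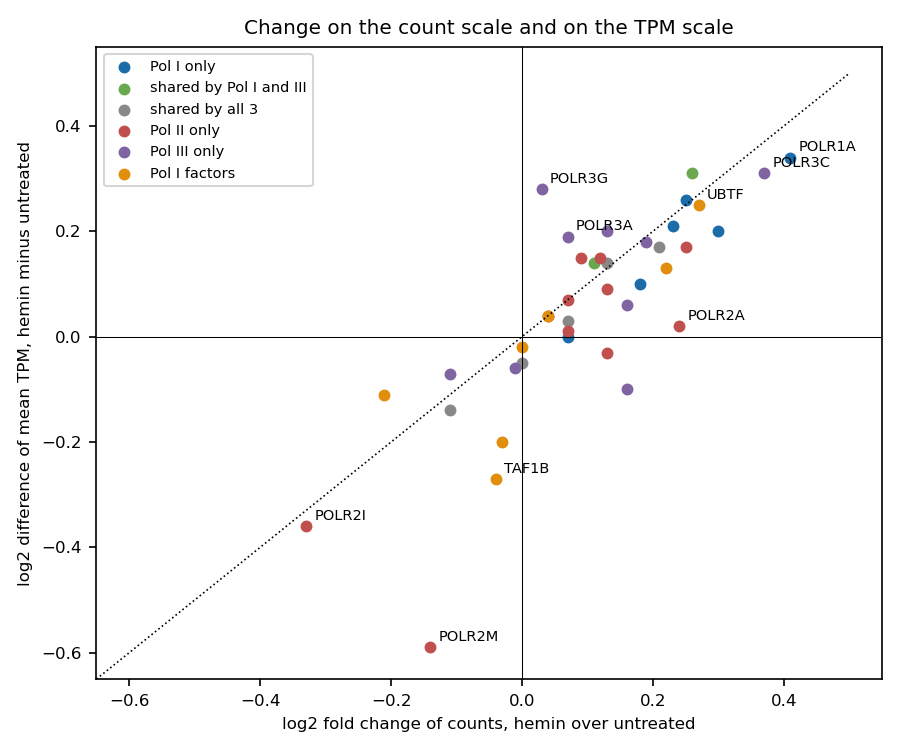
Log2 fold change of counts (horizontal axis) against log2 difference of mean TPM (vertical axis), hemin against untreated, for 40 members, without POLR2J2. POLR2A and POLR2M, which lie well under the dotted line of equality, had a longer effective length after hemin, and POLR3G, well above it, a shorter one.

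Among the Pol I factors, UBTF (chr17:44205033-44221626, minus strand), which binds along active ribosomal RNA genes, had counts of 812 and 702 in the untreated and 854 and 979 in the hemin libraries. The groups did not overlap and the log2 fold change was 0.27 (SE 0.06, adjusted p = 0.019). RRN3, which carries Pol I to its promoter, had 200 and 184, then 212 and 238 (0.22, adjusted p = 0.13), and shares 25.3% of its 50-base runs with other genes, most of all RRN3P2. The promoter complex SL1 holds TAF1A, TAF1B, TAF1C and TAF1D, whose log2 fold changes were -0.21, -0.04, -0.03 and 0.04 with adjusted p from 0.52 to 0.88. TAF1D was the most abundant of the 7, at 140.73 to 152.12 TPM. TTF1, which binds the terminators, had counts of 201 and 186, then 180 and 209 (adjusted p = 1.0).

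Promoter windows were compared by short motifs searched on both strands in the 250 bases before each RefSeq start (GRCh38.p14), with 40 windows found for 31 of the member symbols. The ETS motif CCGGAAG occurred in 12 member windows (30.0%), against 8.52% of all 35116 windows. Of the genes with it, POLR1B and POLR3C were called higher. POLR1C, POLR2C, POLR2F, POLR2J2, POLR3A, RRN3, TAF1B, TAF1D and TTF1 also had it and were not called. The other called members, POLR1A, POLR2A, POLR2D and UBTF, were not among the genes with it, and not every member had a window. The E-box CACGTG, which MYC and other factors bind, occurred in 3 (7.5%, against 6.34% of all windows), those of POLR1G, POLR3A and POLR3C. The letters AGATAA, which factors such as GATA1 bind, occurred in 0 member windows, against 9.17% of all windows. All windows include those of noncoding genes, and a match of letters says nothing of binding.

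Effective length differed among the members. With the length correction, 9 members were higher and 0 lower, and every member called higher without the correction was still called. Over all genes 1191 were then higher and 1175 lower. Apart from this correction, whether length bears on the calls was not tested. Of 18 members above 2000 bases, a limit chosen after the values were seen, 5 were called higher and the median log2 fold change was 0.19. Of the 24 others 1 was called, with a median of 0.07. Among all tested genes of any length 7.0% were called higher, and their share by length was not computed. The medians over all tested genes were -0.0 above 2000 bases and -0.01 at or under 2000 bases. Across the 42 genes, which are not independent and share their libraries, Pearson's r between log10 effective length and log2 fold change was 0.272, 0.499 without POLR2J2, and -0.006 over all tested genes.

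Other factors of the same machinery were counted from lists of known members. Among 21 Pol II pausing and elongation factors, 6 were higher (SUPT4H1, SUPT6H, PAF1, CTR9, LARP7 and ELL2) and 1 lower (TCEA1), with a median log2 fold change of 0.164. All tested genes were called higher at 7.0% and lower at 7.14%, which is the background for this list and those that follow. Those 6 and 1, like the other called genes of these lists, are named because they passed. SUPT4H1, a subunit of the elongation factor DSIF, had counts of 323 and 319, then 431 and 424 (0.41, adjusted p = 0.011), and PAF1 had 297 and 283, then 353 and 394 (0.36, adjusted p = 0.013). TCEA1, which rescues stalled Pol II, had 2659 and 2683, then 2276 and 2345 (-0.22, adjusted p = 0.018). CDK9, the kinase of P-TEFb, had -0.16 (adjusted p = 0.26).

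Among 18 general initiation factors of Pol II, 1 was higher, the kinase CDK7 of TFIIH (0.39, adjusted p = 0.0089), and 2 were lower, GTF2E2 of TFIIE (-0.4, adjusted p = 0.026) and GTF2A1 of TFIIA (-0.26, adjusted p = 0.039), with a median of 0.047. The TFIIH subunits GTF2H1 and GTF2H5 had 0.24 (adjusted p = 0.054) and -0.46 (adjusted p = 0.2). Among 17 Pol III factors 3 were higher, the TFIIIC subunits GTF3C6 (0.41, adjusted p = 0.014) and GTF3C4 (0.33, adjusted p = 0.011) and the RNA-binding protein SSB (0.18, adjusted p = 0.041), and 0 were lower, with a median of 0.069. SNAPC1 and SNAPC3, of the complex that binds small nuclear RNA promoters, had -0.38 (adjusted p = 0.36) and -0.21 (adjusted p = 0.064). At an unadjusted p under 0.05 by edgeR, 2 of 14 polymerase assembly factors were higher, against 2133 of all 14458 tested genes. None of the 14 passed the threshold by edgeR, and their median was 0.075. RPAP2 and GPN2 were highest at 0.25 (adjusted p = 0.083) and 0.23 (adjusted p = 0.075), and PDRG1 and UXT lowest at -0.13 (adjusted p = 0.63) and -0.08 (adjusted p = 0.64). Of 6 genes of mitochondrial transcription, TFAM (0.31, adjusted p = 0.0079) and TFB2M (0.47, adjusted p = 0.0061) were higher, with a median of 0.141. POLRMT, the mitochondrial RNA polymerase, had 0.05 (adjusted p = 0.6) and TFB1M 0.07 (adjusted p = 0.81).

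These calls also rested on few libraries. Of the 15 called factors, DESeq2 called 8, edgeR called 5 without untreated replicate 1, 5 without untreated replicate 2, 11 without hemin replicate 1 and 7 without hemin replicate 2, and limma on either TPM scale called 0. With library size only 12 passed, LARP7, CTR9 and SSB being lost. LARP7, CTR9, ELL2 and GTF2A1 were lost by DESeq2 and without any 1 of the 4 libraries. PAF1 was lost by DESeq2 and without either untreated library, GTF2E2 by DESeq2 and without untreated replicate 2 or hemin replicate 2, and GTF3C6 by DESeq2 and without any 1 library but hemin replicate 1. SSB was lost without any 1 library but hemin replicate 1. TCEA1 was lost without untreated replicate 2 or hemin replicate 2, TFAM without untreated replicate 2, and SUPT4H1, CDK7 and GTF3C4 without untreated replicate 1. SUPT6H and TFB2M passed in 12 of 14 alternatives, all but limma.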

How the data were processed

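Per the labels and the methods of the study, reads were trimmed with Trimmomatic 0.39 and the authors quantified each library with RSEM 1.3.1 on STAR 2.7.5c alignments to Ensembl 106 (GRCh38). The tables deposited by the authors give RSEM expected counts, posterior mean counts with their spread, effective lengths and TPM per gene and library, and the authors' averaged tables were used for gene names and TPM columns only. The FPKM tables were not used. Expected counts were rounded, genes were filtered with filterByExpr, scaled by TMM and tested in edgeR 4.0.16 (R 4.3.3) with glmQLFit and glmQLFTest, with condition as the term and no block, and with Benjamini-Hochberg adjustment over all 14458 tested genes. The fit was tested on counts simulated for the hemin against untreated comparison (14162 genes). EdgeR called 50 of 50 genes raised 2 times, 26 of 50 raised 1.3 times and 7 of 13962 unchanged ones. It called 45 of 50 genes lowered to 0.5 times and 28 of 50 lowered to 0.769 times. The changed genes were drawn from those above a floor of mean counts, so recovery for low-count members such as POLR2J2 was not tested. Simulated counts took the fitted trend of spread with mean count and no further spread from gene to gene. Recovery and false calls in the real libraries may therefore differ. Coordinates are from GENCODE 44, in which 99.84% of genes were found. Alternatives were DESeq2 1.42.0, limma 3.58.1 on log2(TPM + 1) and log2(TPM + 0.1), other scalings and filters, posterior mean counts, a length correction, a replicate block and leaving out each library.

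The genes named in full are those past the threshold, the highest and lowest fold changes and TPM of each group, POLR3G with POLR3GL, the POLR2J copies and the 2 highest and 2 lowest of each factor list; the other called genes of those lists, and others, were named after their values were seen. 1 member is counted in the totals and is not reported here by name. Members and lists were chosen with earlier results of these data known. Same-numbered libraries did not deviate together (correlation -0.0261 over 10223 genes, 2 pairs).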

Additional observations from a re-analysis of the deposited data

How the results depend on the processing

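Precision is limited by 2 libraries a group and 7455447 to 8241534 counts each. Over 68 genes and 14 alternatives, 786 of 952 values kept their direction and their side of the threshold, 97 lost the threshold, 33 gained it and 36 changed sign. The cause was not tested.

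Members higher after hemin numbered 10 with no filter, with at least 20 counts and with posterior mean counts, 3 by DESeq2, and 0 with limma on either TPM scale. Members lower numbered 1 with no filter and with at least 20 counts (POLR2J2 in both). Over all genes DESeq2 gave 589 higher and 505 lower, and limma gave 14 and 33 on log2(TPM + 1) and 15 and 34 on log2(TPM + 0.1). Leaving out 1 library gave 469 to 934 genes higher and 512 to 884 lower, 2 to 7 members higher (2 without untreated replicate 2, 3 without untreated replicate 1) and 0 to 1 lower (POLR2I, without hemin replicate 1). The library left alone in its group was then assumed to vary like the other group.

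The median over Pol I genes was 0.2 with library size only, 0.251 with no filter, 0.196 and 0.202 with the limma scales, and 0.215 to 0.285 with a library left out. For Pol II it was 0.044, 0.023 and 0.024 with library size and the limma scales, and 0.008 (without hemin replicate 2) to 0.1 with a library left out. For Pol III it was 0.107 with library size only and 0.123 to 0.174 with a library left out. Over the genes shared by all 3 enzymes it was 0.028 with library size only, 0.024 with either limma scale, and 0.005 (without hemin replicate 1) to 0.166 (without hemin replicate 2). Over those shared by Pol I and Pol III it was 0.127 to 0.253 with a library left out, and over the Pol I factors -0.032 to 0.069. The difference of POLR3G over POLR3GL ran from 0.227 to 0.493 with a library left out.

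With the replicate number as a block, 6 members, 855 genes higher and 886 lower passed (of the 15 called factors LARP7 was lost), although the numbers were not shown to pair the libraries (2 pairs).

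Changes of sign in log2 fold change were as follows, on counts except for the limma values, which are on TPM. TTF1 was 0.00361 with RLE factors, 0.00306 by DESeq2 and 0.0113 with no filter, where POLR3K was 0.00247. With library size only, POLR3G was -0.0131, POLR2H -0.0351 and POLR2G -0.00143. With limma on log2(TPM + 1) POLR3F was -0.0752, POLR2H -0.0536, POLR2J4 -0.0109 and RPAP2 -0.156, and on log2(TPM + 0.1) they were -0.0798, -0.0544, -0.00957 and -0.163. With a library left out, POLR2C ran from -0.0578 to 0.201, TTF1 from -0.0505 to 0.0509, POLR2G from -0.0566 to 0.128, POLR3G from -0.0332 to 0.0931, TAF1B from -0.164 to 0.0962, POLR3K from -0.105 to 0.0912, POLR2H from -0.0506 to 0.0657, POLR2F from -0.0269 to 0.166, POLR2K from -0.224 to 0.00517 and POLR2J from -0.012 to 0.251. The same range was -0.0673 to 0.212 for POLR2J3 (ENSG00000285437), -0.105 to 0.31 for POLR2J3 (ENSG00000168255), -0.206 to 0.0477 for UXT, -0.0111 to 0.127 for POLRMT and -0.113 to 0.229 for TFB1M.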

Other observations

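CRCP, a Pol III subunit whose symbol lies outside the naming pattern and which was looked at after the other values were seen, had 21.51 and 19.69 TPM in the untreated and 23.73 and 26.64 TPM in the hemin libraries, without overlap. Its log2 fold change of counts was 0.30 (SE 0.0828, edgeR, adjusted p = 0.0431).

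Of 16 pseudogenes named after members, 8 were at 0 in all libraries and 2 passed the filter on counts. POLR2CP1 stood at 18.4 and 14.7 TPM before and 17.05 and 15.29 after hemin. RRN3P3 had 3.0 and 7.53 TPM before and 7.51 and 5.4 after, with a log2 fold change of counts of 0.53 (adjusted p = 0.0809).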
